A study of Mus musculus with 6 samples.

Results

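The tumour necrosis factor (TNF) superfamily consists of trimeric ligands, most of them made as membrane proteins that can be shed, and of receptors that bind them on neighbouring cells. The genes described here were those whose symbol in the count tables begins with Tnfsf or Tnfrsf and a digit, together with Tnf, Ltb, Ltbr, Cd40, Fas, Fasl, Cd27 and Eda2r. That rule found 37 of the 16533 genes listed. They comprise 12 ligands, 24 receptors and Tnfsf13os, a non-coding transcript antisense to the ligand gene Tnfsf13 that the naming rule also takes in. Lta, Cd40lg and Cd70, which the rule names as well, were not found among the 16533 genes listed.

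Expression was measured by RNA-seq of inferior vena cavae with the thrombi inside them, 24 h after ligation of the vein, a mouse model of deep vein thrombosis. Control mice, titled WT in the labels, were Stingf/f and carried a loxP-flanked gene for STING, the adaptor of cytosolic DNA sensing. The mice called mKO here were Stingf/f Lyzm-Cre+/-, and carried in addition 1 copy of a Cre recombinase driven by the lysozyme M gene of neutrophils, monocytes and macrophages. All mice of both groups had the floxed alleles and the ligation, and no unligated vein was analysed here. Each library held 3 pooled thrombi, and each group had 3 libraries, so p-values measure the spread between pools.

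When a receptor with a death domain, such as those for TNF and Fas ligand, is occupied, its adaptors can start either a caspase cascade or NF-kB signalling. Receptors without a death domain bind TRAF adaptors directly and drive the canonical or the non-canonical NF-kB pathway. Decoy receptors bind ligand without such signalling. In an inflamed vein TNF is made chiefly by leukocytes and makes endothelium express adhesion molecules and procoagulant proteins, which is why the family is studied in thrombosis.

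Library totals ran from 158579864 to 180068483 counts, and the 37 genes together took 154620 to 220171 counts per library. Levels below are CPM, which are counts scaled to a common library size, scaled between libraries by the trimmed mean of M-values (TMM). The targeted gene Sting1 stood at 25.1, 31.4 and 27.1 CPM in control libraries 1 to 3 and at 22.7, 21.4 and 28.7 CPM in mKO libraries 1 to 3, and the groups overlapped. Its count covers the whole gene in every cell, and does not test a deletion limited to myeloid cells. Lyz2, the locus that carries Cre, stood at 1430, 1759 and 1885 CPM in controls and at 643, 1149 and 1153 CPM in mKO. Skeletal muscle markers summed to 165 CPM in mKO library 3 and 45.1 CPM in control library 3, against 2.96 to 22.2 CPM in the other libraries, and results were recomputed without those 2 libraries together and without each library in turn. Markers of every cell type checked were detected, with none of them at 0 in all libraries.

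The promoters of the genes on which the results turn are shown first, because Tnf and Ltb are close neighbours in the major histocompatibility complex on chromosome 17 and both were higher in mKO. RefSeq promoter sequences (GRCm38.p6) were matched by symbol for 29 of the 37 genes, which gave 33 promoters; the count tables were made on GRCm39, so no other coordinates are given. Each stretch is the 170 bases before the transcription start, 5′ to 3′ on the strand of the gene: Ltb at chr17:35194337-35194506 (+), Tnf at chr17:35202008-35202177 (−), Tnfsf13 at chr11:69685555-69685724 (−), Tnfrsf23 at chr7:143685876-143686045 (−) and Tnfrsf1b at chr4:145246871-145247040 (−). Capitals mark a match to a searched motif.
Ltb: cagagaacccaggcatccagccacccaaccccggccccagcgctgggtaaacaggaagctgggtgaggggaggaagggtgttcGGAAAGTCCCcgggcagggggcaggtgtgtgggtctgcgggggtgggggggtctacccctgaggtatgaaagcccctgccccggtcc
Tnf: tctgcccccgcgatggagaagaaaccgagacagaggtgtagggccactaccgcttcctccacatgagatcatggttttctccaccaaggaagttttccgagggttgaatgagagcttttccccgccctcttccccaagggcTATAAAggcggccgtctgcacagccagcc
Tnfsf13: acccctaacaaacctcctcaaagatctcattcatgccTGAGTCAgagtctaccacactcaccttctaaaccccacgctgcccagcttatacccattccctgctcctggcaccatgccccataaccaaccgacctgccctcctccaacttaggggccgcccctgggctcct
Tnfrsf23: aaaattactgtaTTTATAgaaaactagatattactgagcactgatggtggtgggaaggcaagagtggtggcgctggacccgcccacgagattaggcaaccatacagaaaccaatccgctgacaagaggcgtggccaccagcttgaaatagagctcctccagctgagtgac
Tnfrsf1b: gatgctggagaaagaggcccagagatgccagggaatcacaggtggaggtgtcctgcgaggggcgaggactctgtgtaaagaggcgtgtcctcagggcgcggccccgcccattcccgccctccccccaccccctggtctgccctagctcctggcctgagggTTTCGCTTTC
The capitals in Ltb are an NF-kB consensus match on the reverse strand. Those in Tnf are a TATA box (TATAAA), and those in Tnfrsf23 are the same letters on the reverse strand, farther from the start. In Tnfsf13 they are an AP-1 site (TGANTCA, which reads the same on both strands). In Tnfrsf1b they are an interferon response element (GAAA, any 2 bases, then GAAA) on the reverse strand. In the 250 bases before the start, on both strands, 3 of the 33 promoters held the NF-kB consensus (9.09%), against 3.9% of 32851 promoters in the table. The AP-1 site was in 6 of 33 (18.2%) against 6.75%, and the interferon element in 3 of 33 (9.09%) against 2.98%. The letters TATAAA, at any position in those 250 bases, were in 4 of 33 (12.1%) against 12.4%. The TATA box of Tnf begins 29 bases before the start and the NF-kB match of Ltb 87 bases before it. The reverse-strand TATAAA match in Tnfrsf23 begins 158 bases before the start. These matches are letters in a window, and binding was not measured.

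Compared per kilobase of exon, the receptors for TNF had the highest mean levels of the family in the thrombosed vein. Tnfrsf1b, the TRAF-binding receptor for TNF on leukocytes and endothelium, averaged 91.4 CPM per kb over the 6 libraries, with a range of 59.2 to 127.9. Tnfrsf1a, the widely expressed death domain receptor for TNF, averaged 76.5 CPM per kb (58.1 to 95.4). These ranges overlapped, so the order of the 2 receptors was not beyond their spread. Below them came Tnfrsf23, a mouse decoy receptor for the death ligand TRAIL, at 45.3 CPM per kb (26.5 to 62.0), and Tnfrsf12a, the receptor for TWEAK that is induced in injured tissue, at 35.7 (30.5 to 46.3). Tnfrsf1b, Tnfrsf1a and Tnfrsf23 took 63.5% to 75.3% of the summed CPM of all 24 receptors.

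The ligands with the highest levels stood below 6 of the 24 receptors and above the other 18. Tnfsf14, the ligand LIGHT that binds the lymphotoxin beta receptor and HVEM, averaged 17.4 CPM per kb (9.51 to 25.7), and Ltb, lymphotoxin beta, 17.3 (11.1 to 22.8). Tnf averaged 12.9 CPM per kb (7.64 to 23.4) and Tnfsf12, the ligand TWEAK, 8.19 (6.22 to 9.57). Ranges of neighbours in this order overlapped. At the other end, Fasl, Tnfsf8, Tnfsf11 and Tnfsf10 averaged 0.261 to 0.415 CPM per kb, and the receptor Tnfrsf19 had the lowest value, 0.200. Over the 37 genes, mean CPM ran from 0.506 to 349.1, and 24 of them were under 10 CPM.

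**Figure D1:**
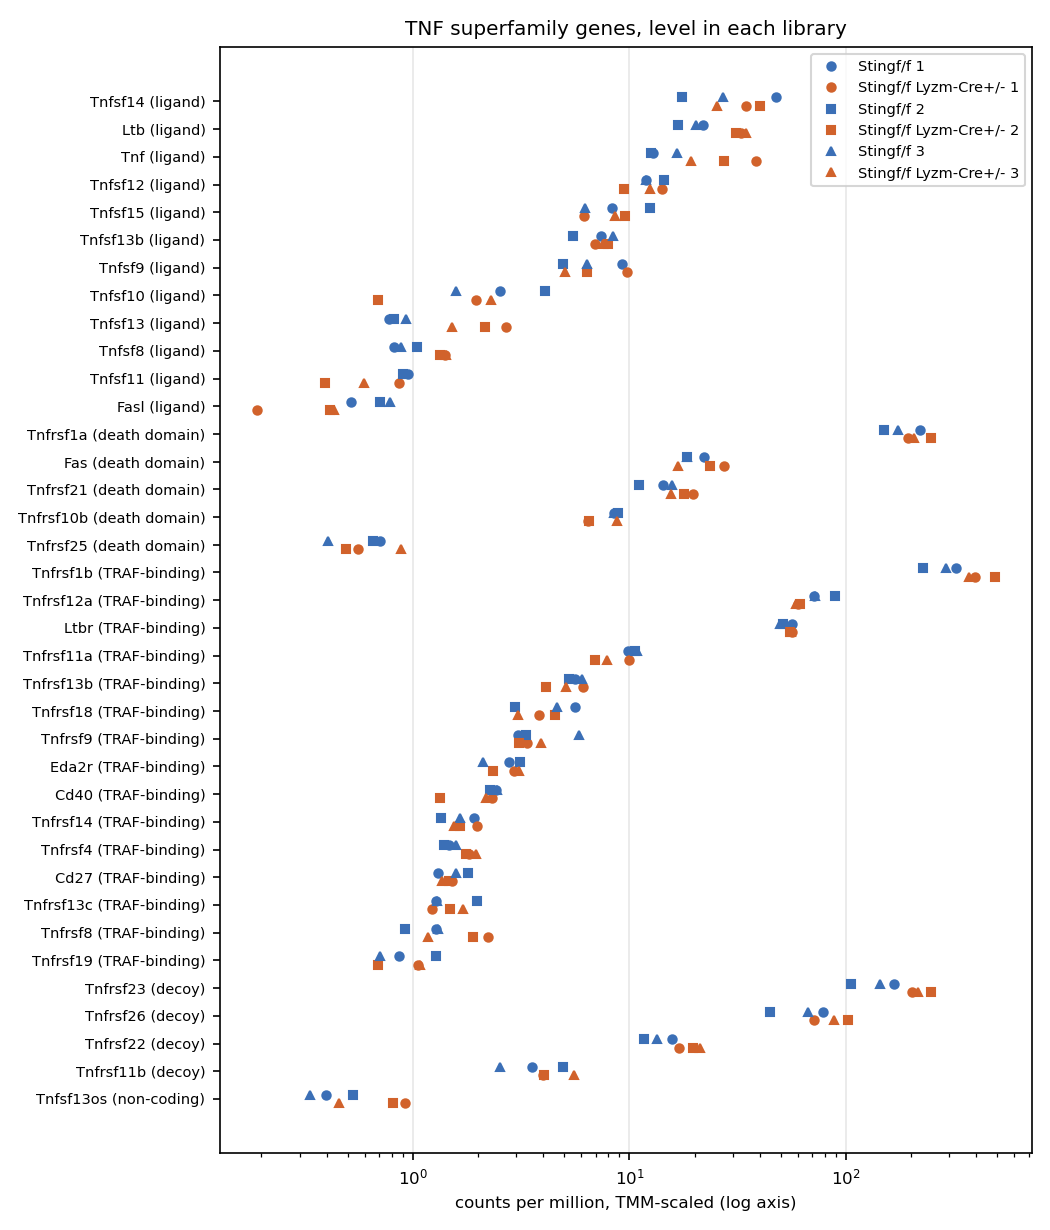
Level of each of the 37 genes in each library, in CPM on a log axis, grouped by role; blue symbols are the 3 control (Stingf/f) libraries and orange symbols the 3 mKO (Stingf/f Lyzm-Cre+/-) libraries. Tnfrsf1b, Tnfrsf1a and Tnfrsf23 lie near or above 100 CPM in all libraries, and most ligands lie under 10 CPM.

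The series compares both genotypes to ask how loss of STING in myeloid cells alters expression in the thrombosed vein. Only the mKO mice carried Cre, so loss of STING and the presence of Cre at Lyz2 cannot be told apart. In the TNF family the ligands Tnf, Ltb, Tnfsf13 and Tnfsf8 had higher values in all 3 mKO libraries than in any control library. So did the receptors Tnfrsf23, Tnfrsf22, Tnfrsf1b and Tnfrsf4. These 8 genes were 1.25-fold to 2.51-fold higher, and 8.76% of all genes were separated upward in this way. Tnfrsf12a, Fasl and Tnfsf11 were lower in all 3 mKO libraries than in any control library, as were 9.39% of all genes. By edgeR's quasi-likelihood test with Benjamini-Hochberg adjustment over all genes, 0 of the 37 passed an adjusted p of 0.05, and 0 of 16523 genes did (0%); the smallest adjusted p among the 37 was 0.154, for Ltb. At an unadjusted edgeR p under 0.05 there were 10 of 37 (27.0%), against 11.9% of all genes tested. Log2 fold changes were above 0 for 22 of the 37, against 45.9% of all genes. Of the 10, 8 were higher in mKO, where the share over all genes was 5.6%, and 2 were lower, where it was 6.26%. Limma voom called 0 of the 37 at an adjusted p of 0.05, and 0% of all genes; at an unadjusted p it had 8 higher and 2 lower, against 5.67% and 6.25% of all genes. DESeq2 called 4 of the 37, all higher, namely Ltb, Tnfsf13, Tnf and Tnfrsf23, against 2.79% of all genes in either direction and 1.47% higher.

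Groups did not overlap for 11 of the 37 genes (29.7%), against 18.2% of all genes: 8 were higher, against 8.76%, and 3 lower, against 9.39%. The count of lower genes at an unadjusted p was 0 without control library 2 and 1 without control library 3. That of lower genes without overlap was 5 without control library 1, control library 2 or mKO library 1. With a library left out the groups separate more easily for any gene. Shares over all genes were not computed for those fits, so these counts are not set against the 9.39%. The 6 genes Ltb, Tnf, Tnfsf13, Tnfrsf22, Tnfrsf23 and Tnfrsf1b kept an unadjusted edgeR p under 0.05 on leaving out each library in turn; Tnfrsf12a, Fasl, Tnfsf8 and Tnfrsf21 did not. Of those 6, Tnfrsf1b (p 0.0510) and Tnfrsf22 (p 0.0747) lost it by edgeR with both libraries rich in skeletal muscle transcripts removed, and Tnfrsf1b lost it with the replicate number as a block (p 0.0503). In bulk tissue, fewer cells of a type and less RNA per cell cannot be told apart.

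**Figure D2:**
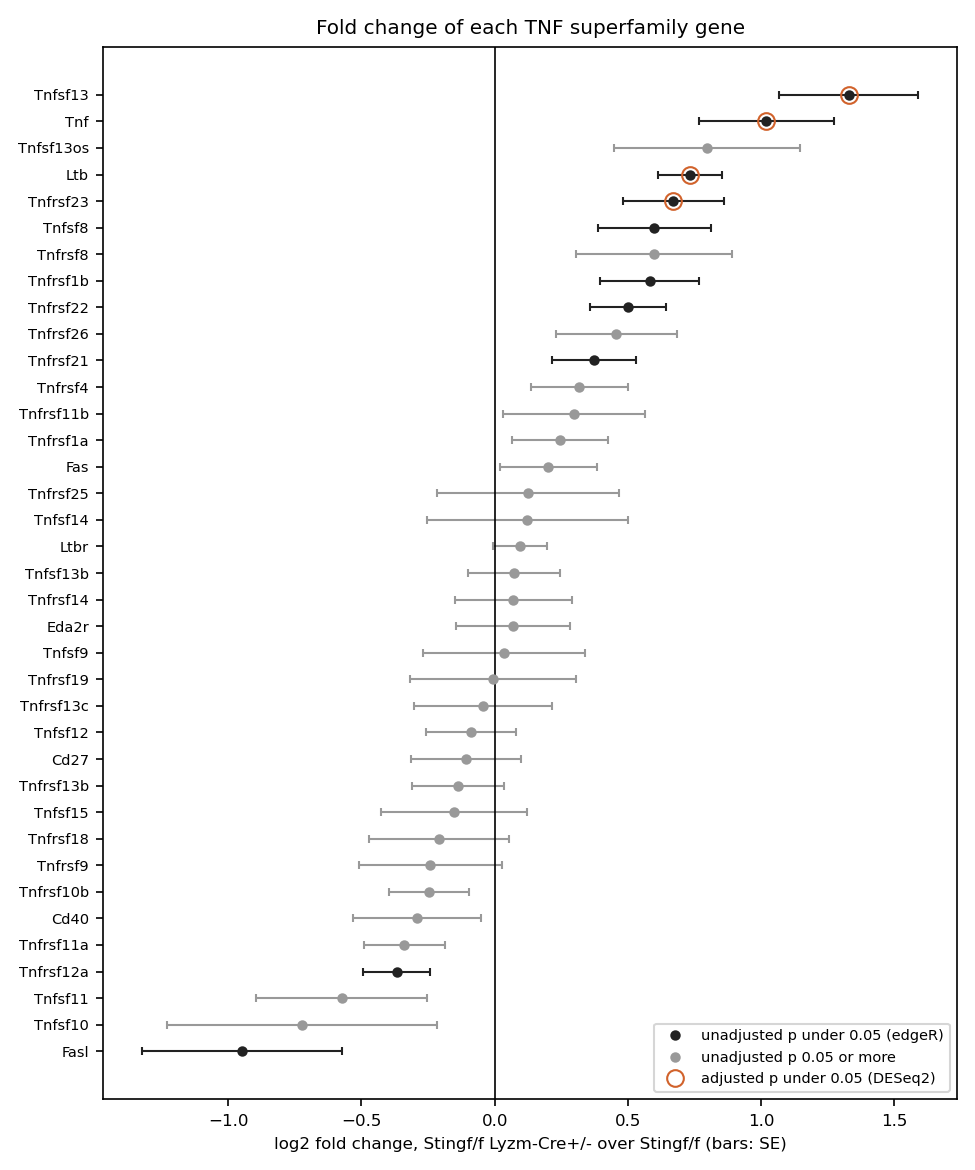
Log2 fold change of each of the 37 genes, mKO over control, from edgeR, with bars of 1 SE. Black points have an unadjusted p under 0.05, and orange rings mark the 4 genes that DESeq2 called; Tnfsf13 is the highest at 1.33 and Fasl the lowest at -0.95.

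Among the ligands, Tnf, the founding cytokine of the family and an early product of activated macrophages and neutrophils, stood at 12.8, 12.5 and 16.6 CPM in control libraries 1 to 3 and at 38.3, 27.5 and 19.3 CPM in mKO libraries 1 to 3. All mKO libraries were above all control libraries, with mKO library 3 close to control library 3 and mKO library 1 the highest. Tnf had a log2 fold change of 1.02 (SE 0.25; adjusted p 0.255 by edgeR and 0.00719 by DESeq2). The exact permutation test (two-sided) gave p = 0.1, which is the smallest that 3 against 3 libraries allows. Leaving out mKO library 1 lowered the estimate to 0.74, and leaving out mKO library 3 raised it to 1.23.

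Ltb forms membrane trimers with lymphotoxin alpha that signal through Ltbr and the non-canonical NF-kB pathway. Its levels were 22.0, 16.9 and 20.4 CPM in controls and 32.9, 31.0 and 34.5 CPM in mKO. Both groups were tight and the gap between them was wider than either, which gave the smallest p of the family. The log2 fold change was 0.73 (SE 0.12; adjusted p 0.154 by edgeR and 2.75e-04 by DESeq2).

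Tnfsf13 encodes APRIL, a survival factor for plasma cells that myeloid cells secrete. It stood at 0.778, 0.823 and 0.930 CPM in controls and at 2.68, 2.16 and 1.52 CPM in mKO. The groups did not overlap, and the log2 fold change of 1.33 (SE 0.26; adjusted p 0.188 by edgeR and 5.53e-04 by DESeq2) was the highest of the family. Its reads are hard to assign: in the GENCODE M21 annotation 60.0% of its exon sequence is shared with Tnfsfm13, the read-through of Tnfsf12 and Tnfsf13 on the same strand, and 13.5% overlaps the antisense Tnfsf13os. Tnfsfm13 itself stood at 7.41, 9.12 and 7.27 CPM in controls and 10.1, 8.60 and 7.77 CPM in mKO, overlapping groups with a log2 fold change of 0.16 (SE 0.15). Tnfsf13os stood at 0.397, 0.527 and 0.336 CPM in controls and 0.925, 0.812 and 0.457 CPM in mKO, which overlap, with 0.80 (SE 0.35; unadjusted p 0.0526 by edgeR). Tnfsf12 shares 48.3% of its exon sequence with the same read-through, stood between 11.9 and 14.5 CPM in controls and 14.2, 9.42 and 12.5 CPM in mKO, and had -0.09 (SE 0.17). How the authors' counting treated reads in these shared exons is not stated in the sources used here.

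Tnfsf8, the ligand of CD30 on activated lymphocytes, stood at 0.817, 1.04 and 0.884 CPM in controls and 1.41, 1.33 and 1.42 CPM in mKO. There was no overlap, and the log2 fold change was 0.60 (SE 0.21; unadjusted p 0.0235 and adjusted p 0.360 by edgeR). Fasl, the death ligand of cytotoxic lymphocytes, went the other way, with 0.517, 0.702 and 0.781 CPM in controls and 0.191, 0.412 and 0.433 CPM in mKO. All 3 mKO libraries were below control, at a log2 fold change of -0.95 (SE 0.38; unadjusted p 0.0370 and adjusted p 0.391 by edgeR), on 33 to 128 counts per library. The 6 markers of NK cells, which use Fas ligand, were also lower as a sum, at 8.07 to 19.0 CPM in controls and 4.76 to 7.05 CPM in mKO, with all 6 log2 fold changes negative. That gap lay in the granzymes Gzma and Gzmb, at -1.40 and -1.68: the other 4 markers summed to 2.72 to 5.27 CPM in controls and 2.22 to 3.55 CPM in mKO, which overlap. Ncr1, which defines NK cells, averaged 0.207 CPM and had -0.12. The 8 T cell markers summed to 21.1 to 39.9 CPM in controls and 22.0 to 24.1 CPM in mKO, which overlap, with all 8 log2 fold changes negative and a median of -0.39. The part of these cells in the Fasl result was not tested.

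Tnfsf14 had the widest spread of the abundant ligands, with 47.4, 17.6 and 27.1 CPM in controls and 34.7, 40.3 and 25.4 CPM in mKO. Control libraries 1 and 2 were the highest and lowest of all 6, so the groups overlapped fully, and the log2 fold change was 0.12 (SE 0.38). It turned to -0.16 without control library 2 and to -0.03 without mKO library 2.

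The other 5 ligands had an unadjusted edgeR p of 0.112 or more. Tnfsf10, the interferon-inducible death ligand TRAIL, had a log2 fold change of -0.72 (SE 0.51), with 1.58 to 4.06 CPM in controls and 0.694 to 2.30 CPM in mKO. Tnfsf11, the osteoclast factor RANKL, had -0.57 (SE 0.32), and its groups did not overlap, at 0.905 to 0.947 CPM in controls and 0.393 to 0.867 CPM in mKO. Tnfsf15, the endothelial cytokine TL1A, had -0.15 (SE 0.27), Tnfsf13b, the B cell survival factor BAFF, 0.07 (SE 0.17), and Tnfsf9, the co-stimulator 4-1BB ligand, 0.04 (SE 0.30). Over all 12 ligands the median log2 fold change was 0.05, against -0.03 over all genes, with 7 above and 5 below 0; it turned to -0.036 without control library 2.

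**Figure D3:**
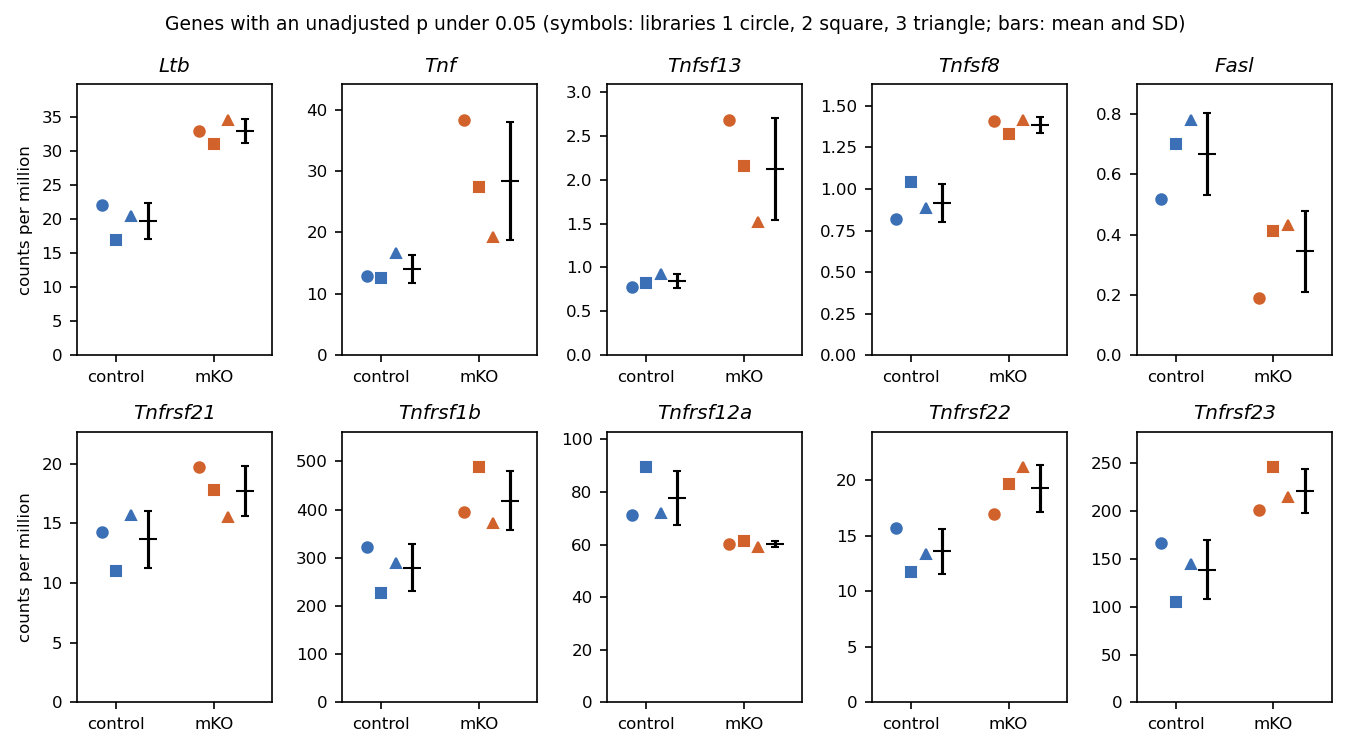
CPM of the 10 genes with an unadjusted edgeR p under 0.05, by library (circle, square and triangle for libraries 1, 2 and 3), with the mean and SD of each group at its right. The groups overlap in Tnfrsf21 only; Fasl and Tnfrsf12a are the lower genes and the other 8 are higher in mKO.

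Among the death domain receptors, Tnfrsf1a stood at 220.1, 150.6 and 173.8 CPM in controls and 193.2, 247.2 and 205.2 CPM in mKO. The groups overlapped, with a log2 fold change of 0.25 (SE 0.18; unadjusted p 0.213 by edgeR). Tnfrsf21, the orphan death receptor DR6, had 14.3, 11.0 and 15.7 CPM in controls and 19.7, 17.8 and 15.6 CPM in mKO, a log2 fold change of 0.37 (SE 0.16; unadjusted p 0.0459 and adjusted p 0.410 by edgeR). Control library 3 lay just above mKO library 3. Fas, the receptor of Fas ligand, had 0.20 (SE 0.18) and 16.7 to 27.4 CPM over all libraries. Tnfrsf10b, the mouse death receptor for TRAIL, had -0.25 (SE 0.15): control libraries were tight, at 8.48 to 8.84 CPM, and mKO libraries 1 and 2 were at 6.47 and 6.49 CPM, but mKO library 3 was at 8.79 CPM. Tnfrsf25, the receptor of TL1A on T cells, had 0.13 (SE 0.34) at a mean of 0.616 CPM.

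The TRAF-binding receptors were headed by Tnfrsf1b, which stood at 322.9, 226.1 and 290.1 CPM in controls and at 395.9, 488.2 and 371.6 CPM in mKO. The groups did not overlap, control library 2 was lowest and mKO library 2 highest. The log2 fold change was 0.58 (SE 0.19; unadjusted p 0.0151 and adjusted p 0.327 by edgeR, adjusted p 0.0622 by DESeq2). Within each library, Tnfrsf1b had 1.47, 1.50 and 1.67 times the CPM of Tnfrsf1a in controls and 2.05, 1.97 and 1.81 times in mKO. This ratio does not depend on library scaling, and its groups did not overlap; it was chosen after the values were seen.

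Tnfrsf12a, known as Fn14, stood at 71.4, 89.4 and 72.1 CPM in controls and at 60.2, 61.5 and 58.9 CPM in mKO. The mKO libraries were nearly alike and all below control, with a log2 fold change of -0.37 (SE 0.13; unadjusted p 0.0203 and adjusted p 0.349 by edgeR). Without control library 2, which had the highest level, the value was -0.25. Smooth muscle markers, of a cell type that expresses Tnfrsf12a, summed to 1382, 2951 and 1155 CPM in controls and to 909, 628 and 1419 CPM in mKO. Endothelial markers summed to 845.9 to 974.5 CPM in controls and 624.0 to 762.2 CPM in mKO, without overlap. Fibroblast markers summed to 586 to 1189 CPM and 480 to 898 CPM, which overlap. The part of these cells in the result was not tested.

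Ltbr, the receptor of Ltb and LIGHT on stromal and myeloid cells, had 56.1, 51.4 and 49.6 CPM in controls and 56.4, 55.4 and 56.0 CPM in mKO. Its log2 fold change was 0.10 (SE 0.10; unadjusted p 0.373 by edgeR), the groups overlapped, and it was the steadiest of the abundant members. Tnfrsf8, or CD30, the receptor of Tnfsf8, had 0.60 (SE 0.29; unadjusted p 0.0778 by edgeR), and mKO library 3 lay below controls 1 and 3. Tnfrsf4, the T cell co-stimulator OX40, had 0.32 (SE 0.18), with groups that did not overlap, at 1.39 to 1.58 CPM in controls and 1.77 to 1.96 CPM in mKO. Tnfrsf11a, the RANKL receptor RANK, had -0.34 (SE 0.15; unadjusted p 0.0567 by edgeR), and mKO library 1 lay within the control range.

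The remaining TRAF-binding receptors had log2 fold changes with an unadjusted edgeR p above 0.2. On B cells these were Cd40 at -0.29 (SE 0.24), and the BAFF receptors Tnfrsf13b and Tnfrsf13c at -0.14 (SE 0.17) and -0.04 (SE 0.26). On T cells they were the co-stimulators Tnfrsf9 at -0.24 (SE 0.27), Tnfrsf18 at -0.21 (SE 0.26), Cd27 at -0.11 (SE 0.21) and Tnfrsf14 (HVEM) at 0.07 (SE 0.22). The ectodysplasin receptor Eda2r had 0.07 (SE 0.21) and Tnfrsf19 -0.01 (SE 0.31). Of these 9 receptors, 7 had a negative estimate.

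All 4 receptors listed as decoys had positive log2 fold changes, where 45.9% of all genes did. Tnfrsf23 stood at 166.6, 105.1 and 144.0 CPM in controls and at 201.2, 245.7 and 215.0 CPM in mKO. The groups did not overlap, with 0.67 (SE 0.19; adjusted p 0.302 by edgeR and 0.0362 by DESeq2). Tnfrsf22, its neighbour on chromosome 7 and also a TRAIL decoy, had 15.7, 11.7 and 13.4 CPM in controls and 17.0, 19.7 and 21.2 CPM in mKO, again without overlap, with 0.50 (SE 0.14; adjusted p 0.302 by edgeR and 0.0894 by DESeq2). Tnfrsf26, the third gene of that cluster, had 78.1, 44.6 and 67.0 CPM in controls and 71.1, 101.8 and 87.7 CPM in mKO; mKO library 1 lay within the control range, and the value was 0.46 (SE 0.23; unadjusted p 0.0800 by edgeR). Tnfrsf11b, osteoprotegerin, a soluble decoy for RANKL, had 0.30 (SE 0.27).

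Tnfrsf22 and Tnfrsf23 are near-identical over part of their length: 17.3% of the 50-base words in Tnfrsf22 transcripts occur in Tnfrsf23 transcripts, and 18.0% the other way. Reads there could be split between them, so the smaller Tnfrsf22 count is uncertain. Tnfrsf26 shared no such word with another member. Over all 24 receptors the median log2 fold change was 0.08, with 14 above and 10 below 0. It was 0.041 to 0.18 on leaving out single libraries and -0.0076 with both libraries rich in skeletal muscle transcripts removed.

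Summed over receptors, control libraries held 1017, 759.1 and 895.7 CPM and mKO libraries 1091, 1303 and 1097 CPM, without overlap, a sum that Tnfrsf1b, Tnfrsf1a and Tnfrsf23 dominate. Ligands summed to 124.7, 91.9 and 102.1 CPM in controls and to 150.0, 137.0 and 119.0 CPM in mKO, with mKO library 3 below control library 1. Control library 2 was the lowest of the 6 libraries for 15 of the 37 genes and the highest for 9. It had the lowest sum of the 10 neutrophil markers, 9345 CPM, against 12439 to 15345 CPM in the other controls and 13034 to 18200 CPM in mKO. The 10 monocyte and macrophage markers summed to 1212 to 1530 CPM in controls and 1345 to 1970 CPM in mKO, and without Cd14, the most abundant of them, to 660.4 to 751.6 CPM and 739.1 to 943.9 CPM. Of these 10 markers 8 had positive log2 fold changes, and Cd68 and Csf1r did not overlap between groups; Cd68 had 0.60 (adjusted p 0.246 by edgeR and 0.00643 by DESeq2). Neutrophils and monocytes express Tnf, Tnfrsf1b, Tnfrsf1a and Tnfsf14, their marker sums overlapped between groups, and their part in these results was not tested.

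**Figure D4:**
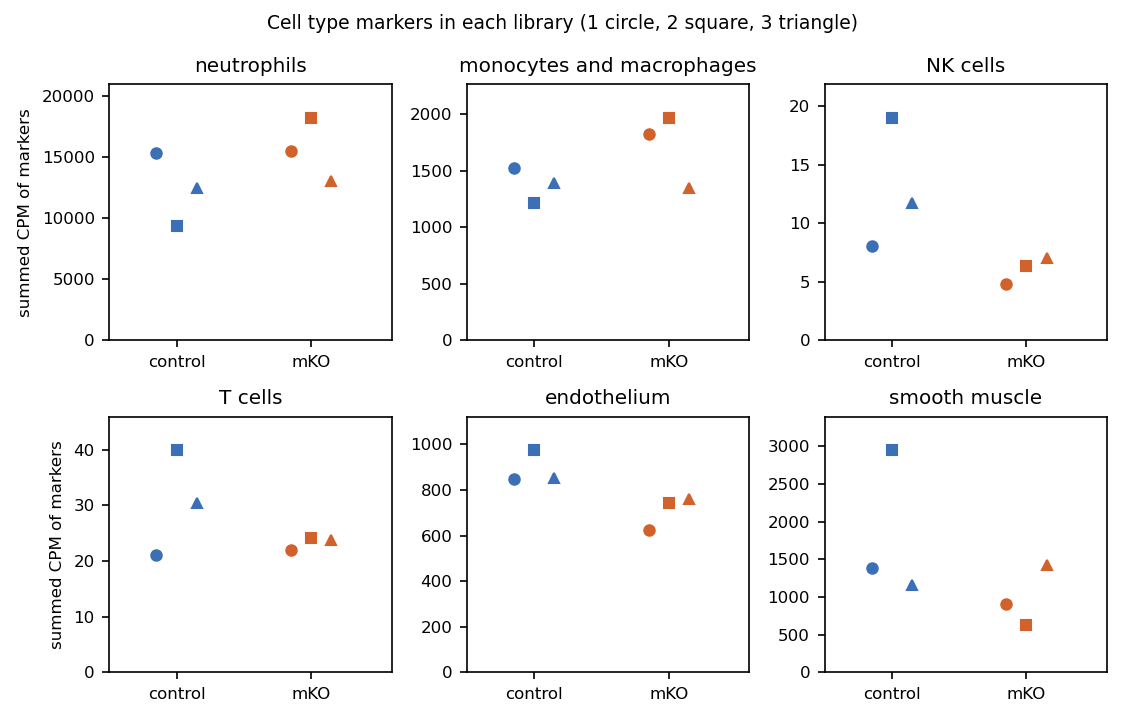
Summed CPM of the marker genes of 6 cell types in each library (circle, square and triangle for libraries 1, 2 and 3). Neutrophil, macrophage, T cell and smooth muscle sums overlap between groups, whereas NK cell and endothelial sums are lower in all 3 mKO libraries; without Gzma and Gzmb the NK cell sum overlaps as well.

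The signal chain below the receptors was described with a list of 33 adaptors, kinases, ubiquitin-system proteins, NF-kB subunits and ligand-shedding factors. By edgeR 0 passed an adjusted p of 0.05, and DESeq2 called 3 (9.09%, against 2.79% of all genes). At an unadjusted edgeR p under 0.05, 5 were higher and 1 lower in mKO (18.2%, against 11.9% of all genes), and the median log2 fold change was 0.14, or 0.091 without control library 2. Adam17, the protease that sheds TNF and both of its receptors, had 61.5 ± 2.47 CPM in controls and 83.3 ± 7.61 CPM in mKO (SD, n = 3), without overlap, and a log2 fold change of 0.44 (SE 0.12). Of the non-canonical pathway, Map3k14, the kinase NIK that Ltbr activates, had 0.57 (SE 0.16), and Traf3, the adaptor that keeps NIK low, 0.36 (SE 0.09). The NF-kB subunit Rel had 0.47 (SE 0.13). Birc2, the ubiquitin ligase cIAP1 that acts with Traf3, was the lower gene, with 48.4 ± 9.42 CPM in controls and 29.6 ± 2.41 CPM in mKO (SD, n = 3) and -0.71 (SE 0.16). These 5 had adjusted p from 0.221 to 0.297 by edgeR, and DESeq2 called Birc2, Traf3 and Adam17 at 0.00656, 0.0211 and 0.0199. With both libraries rich in skeletal muscle transcripts removed, 3 of the 33 were higher at an unadjusted p. The share over all genes was not computed for that smaller fit, so the 3 are not set against the 5.

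Genes known to be induced by TNF were described with a list of 25, of which 24 were measured. By edgeR 0 passed an adjusted p of 0.05, and DESeq2 called 6, all higher (25%, against 1.47% of all genes called higher). At an unadjusted edgeR p under 0.05, 9 were higher and 0 lower in mKO (37.5%, against 11.9% of all genes), and the median log2 fold change was 0.30. The median was 0.17 without control library 2 and 0.46 with both libraries rich in skeletal muscle transcripts removed. At an unadjusted p 1 gene was lower without control library 3 or mKO library 1. Shares over all genes were not computed for those fits. These genes answer to other stimuli as well, and their result in these libraries was known when the list was made, so the count is no independent evidence. Tnfaip6, a hyaluronan-binding protein of inflamed tissue, stood at 8.45, 8.50 and 7.79 CPM in controls and 15.1, 13.3 and 16.2 CPM in mKO. Sele, the endothelial adhesion molecule E-selectin, stood at 3.45, 4.20 and 4.23 CPM in controls and 7.23, 5.17 and 6.49 CPM in mKO, without overlap; its log2 fold change was 0.67 (SE 0.17; adjusted p 0.257 by edgeR). The cyclooxygenase Ptgs2 had 0.55 (SE 0.14), the cytokine Lif 0.86 (SE 0.21) and Il1b 0.70 (SE 0.21).

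Other TNF-inducible genes of the vessel wall had an unadjusted edgeR p above 0.05. Vcam1 had a log2 fold change of -0.39 (SE 0.26), Icam1 -0.10 (SE 0.15), and F3, tissue factor, the trigger of coagulation, 0.03 (SE 0.10). Selp, the P-selectin of endothelium and platelets, had 0.34 (SE 0.16; unadjusted p 0.0659 by edgeR), and its groups did not overlap, at 97.6 to 120.7 CPM in controls and 123.9 to 167.1 CPM in mKO. F3 stood at 24.3 ± 0.912 CPM in controls and 24.9 ± 2.08 CPM in mKO (SD, n = 3). The 8 endothelial markers, of the cells that make Sele, Selp and Vcam1, summed to 845.9 to 974.5 CPM in controls and 624.0 to 762.2 CPM in mKO, without overlap, and their part in these values was not tested. The feedback inhibitors Nfkbia and Tnfaip3 had 0.02 (SE 0.19) and 0.36 (SE 0.27). For both, mKO library 1 was the highest and mKO library 3 the lowest of all 6 libraries. Vcam1, Icam1, F3, Selp, Nfkbia and Tnfaip3 were chosen after their values were seen.

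**Figure D5:**
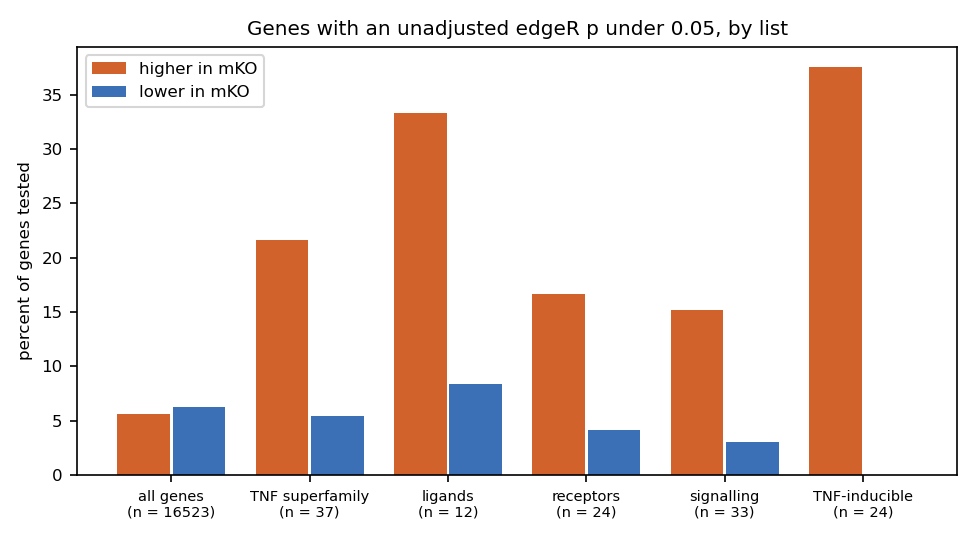
Percent of genes tested with an unadjusted edgeR p under 0.05, higher (orange) or lower (blue) in mKO, for all 16523 genes and for each list. The higher genes are 5.6% of all genes, 8 of the 37 TNF superfamily genes and 9 of the 24 TNF-inducible genes.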

How the data were processed

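Polyadenylated RNA of 6 libraries of ligated inferior vena cava with thrombus, 3 per genotype, was sequenced with paired ends (DNBSEQ T7, per the labels' protocols). For each library the authors deposited a table of raw counts by gene, without normalization. The submitters' processing notes list HISAT2 2.1.0, featureCounts 2.0.1, Trim Galore 0.4.0, FastQC 0.11.8 and GRCm39 without saying what each did. The annotation, strand setting and treatment of shared reads are not stated in the sources used here, so reads of antisense and overlapping genes cannot be told apart. All tables list the same 16533 genes, 13 without a symbol. Lists and members were chosen with earlier results of these data known.

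Counts were tested in R 4.3.3 with edgeR 4.0.16 (quasi-likelihood F-test, TMM, robust dispersion, default expression filter, 16523 genes kept) and adjusted over all genes by Benjamini-Hochberg at 0.05. The SE is the log2 fold change divided by the square root of F. CPM use TMM-scaled library sizes. Exact permutation tests of single genes used log2(CPM + 0.01). Exon lengths and overlaps came from GENCODE M21, an annotation of the earlier build GRCm38, by gene ID. The fits were tested first on simulated data in which 100 genes were changed 2-fold and 100 others 4-fold. At an adjusted p of 0.05 edgeR recovered 47% of the 2-fold changes, limma voom 31% and DESeq2 65%, so a gene not called may still differ. Of the 4-fold changes they recovered 89%, 86% and 96%. These shares do not describe false calls, which are not given here. No 2 libraries of a group agreed within sampling noise. Deviations of same-numbered libraries correlated at -0.19, -0.18 and -0.30. These values gave no sign of pairing, but with 3 libraries per group they cannot exclude it.

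Values in every library are given for members with an unadjusted p under 0.05 or called by DESeq2, the 4 ligands and 6 receptors with the highest CPM, and Tnf, Tnfrsf1a and Tnfrsf1b, 15 in all (Tnfsf12 in controls by its range), and up to 5 genes per further list were named by smallest p; genes beyond this rule are named to account for every member. Alternatives were DESeq2 1.42.0, limma voom 3.58.1, DESeq2 size factors, no filter, a replicate block, haemoglobin genes left out, each library left out, and, added after seeing the data, the 2 libraries richest in skeletal muscle transcripts left out.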

Additional observations from a re-analysis of the deposited data

How the results depend on the processing

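With DESeq2, 242 genes were higher and 219 lower at an adjusted p of 0.05, and 4 of the 37 TNF superfamily genes were higher; edgeR gave 0 in each case. With the replicate block in the edgeR fit, 5 of the 37 were higher and 1 lower at an unadjusted p under 0.05, in place of 8 and 2. The share over all genes at that threshold was not computed with the block, so whether this drop is particular to the family is not known. No library correlated best with its own number, but whether same-numbered libraries belong together could not be settled. The block changed no other count by over 1.5 times. With both libraries rich in skeletal muscle transcripts removed, edgeR called 5 genes higher and 1 lower, none of the 37. In that fit 1 of the 37 was lower at an unadjusted p and 6 were lower without overlap. Its medians were 0.19 for ligands and -0.0076 for receptors. Smaller groups separate more easily for any gene. Shares over all genes at these 2 criteria were not computed for that fit, so its counts are not set against those of all 6 libraries. On leaving out each library in turn, edgeR called 0 to 4 genes higher and 0 to 3 lower, none of the 37. Over those fits 0 to 3 of the 37 were lower at an unadjusted p and 3 to 5 were lower without overlap. Here too groups were smaller, and shares over all genes at these criteria were not computed. The medians ran from -0.036 to 0.21 for ligands and from 0.041 to 0.18 for receptors. Tnfsf14 turned to -0.16 without control library 2 and to -0.032 without mKO library 2 (range -0.16 to 0.58), and Tnfsf12 turned to 0.010 and 0.058 (range -0.22 to 0.058). With DESeq2 size factors, no filter, limma voom or haemoglobin genes left out, all counts of the 37 stayed within 1.5 times and every named member kept its direction. The cause of these shifts was not tested. Members under 1 CPM, such as Fasl and Tnfsf11, rest on few counts (33 to 128 per library for Fasl).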

Other observations

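The 5 genes whose log2 CPM followed Tnf most closely over the 6 libraries, among 13893 others with a mean of at least 1 CPM, were Imp4, Fbxl15, the chemokine gene Ccl4, Evi2a and Lgals3, galectin-3 of macrophages. Pearson's r ran from 0.980 to 0.983, as a description over 6 points that share libraries and were ranked over many genes. Their log2 fold changes ran from 0.10 for Imp4 to 0.53 for Ccl4, against 1.02 for Tnf. None of the 5 is a TNF superfamily gene.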
